A study of Mus musculus with 19 samples.

Results

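The claudin and tight junction genes described here are 8 genes of mouse mammary tissue out of 24421 genes in the count files. They were taken by their symbols and comprise the claudins Cldn1, Cldn3, Cldn4, Cldn7 and Cldn8, occludin (Ocln), the scaffold gene Tjp1 and the polarity gene Pard6b. All 8 were found in each of the 19 libraries and all passed the filter on low counts. Their mRNA levels were compared between days 6 and 18 of pregnancy (p6 and p18) and between wild-type (WT) mice and mice lacking enhancers of the casein locus.

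Tight junctions seal the space between neighbouring epithelial cells near their apical surface. Claudins are the membrane proteins that line this seal and set which ions pass it, occludin is a further membrane protein of the junction, and scaffold proteins such as ZO-1 tie both to the actin cytoskeleton. In the mammary gland the junctions between alveolar cells are leaky during pregnancy and close around the onset of milk secretion, so that milk components do not flow back into the tissue.

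From WT mice there were 3 libraries of p6 and 3 of p18. The homozygous ΔSE mice, labelled Csn_S1-4, lack the super-enhancer next to Odam, and 4 libraries of p6 and 4 of p18 came from them. Libraries labelled delCsn1s2b-E (ΔCsn1s2bE, n = 3) and delCsn3-PE (ΔCsn3PE, n = 2) came from mice lacking 1 enhancer each, of Csn1s2b and of Csn3, and carry the stage label p18. Their extraction notes name WT tissue in lactation, so that the stage of these 5 libraries is uncertain, and which of the Csn1s2b enhancers was removed is not labelled. All mice were labelled C57BL/6 (C57BL/6N in the study's methods) and were 8 to 12 weeks old. The deletions were in the germline, WT mice carried none, and the tissue was whole mammary gland. In such tissue, fewer cells of a type and less RNA per cell cannot be told apart.

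Reads in genes ranged from 12335272 to 20525175 in the WT and ΔSE libraries, of which the ribosomal RNA precursor Rn45s took 21.7 to 42.9%, and from 26848053 to 30329601 in the single-enhancer libraries, with 0.0765 to 0.924% for Rn45s. These libraries form another set without WT samples of their own. Csn3, the kappa-casein gene, was at 5301 to 6915 normalized CPM (reads relative to library size, after TMM scaling) in WT tissue at p18, at 51.7 to 156 in ΔSE tissue, at 279 and 1347 in ΔCsn3PE tissue and at 13362 to 20260 in ΔCsn1s2bE tissue. Csn1s2b was at 43.8 to 226 in WT tissue at p18, at 2.70 to 16.6 in ΔSE tissue and at 28.0 to 50.3 in ΔCsn1s2bE tissue. The libraries also differed in tissue content. The summed level of 8 skeletal muscle genes ranged from 3.94 to 1610 normalized CPM in WT tissue at p18 and from 5.65 to 15.3 in ΔSE tissue at p18. The summed level of 10 luminal epithelial genes (keratins, Epcam, Cdh1 and others, none of them among the 8 genes) was 879 to 1145 in WT tissue at p6 and 1192 to 1672 at p18, and 523 to 975 in ΔSE tissue at p6 and 1527 to 1717 at p18. Every gene of both lists had reads in every group.

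The genes lie on 6 chromosomes of GRCm38 (mm10). Cldn3 (chr5:134986214-134987472) and Cldn4 (chr5:134945119-134946934) are single-exon genes 39279 bases apart. Cldn8 (chr16:88560828-88563183) is also a single-exon gene and lies 53849 bases from Cldn17. Cldn1 (chr16:26356642-26371841), Cldn7 (chr11:69964779-69967885), Ocln (chr13:100496507-100552718), Tjp1 (chr7:65296165-65527781) and Pard6b (chr2:168081004-168101203) have several exons. Cldn3 overlaps Wbscr25 on the opposite strand and Tjp1 overlaps predicted genes on both strands, and the strand setting of the counts was not given in the sources used here, so that reads of overlapping genes may be mixed.

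RefSeq promoter windows were matched for 7 of the 8 genes (9 windows), with no window for Cldn8, and were searched over the 250 bases before each start. The letters CACCTG, an E-box bound by the repressors SNAI1, ZEB1 and ZEB2, were found on one strand or the other in windows of Cldn4, Cldn7, Ocln and Pard6b, and in 17.2% of 32841 RefSeq promoters. The letters TTCNNNGAA, the GAS motif of the prolactin-activated factor STAT5, were found in a window of Cldn7 and in 7.02% of all promoters. None of the 9 windows held the NFI site TGGCA, which 42.8% of promoters hold. Nor did any hold the GRHL motif AACCNGTT (1.79% of promoters) or the TATA box with the letters TATAAA (12.4%). The windows of Pard6b and Cldn4 are shown because, of the 4 genes that were called higher with stage in ΔSE tissue and not in WT tissue by edgeR, these hold CACCTG. Cldn7 and Ocln, which were called higher in both genotypes, hold it too, and this choice by calls is not a test of a difference between the genotypes. Capitals mark CACCTG or its reverse complement, and the sequences are from RefSeq on GRCm38.p6, on the strand of the gene, at chr2:168080754-168081003 (plus strand) and chr5:134946935-134947184 (minus strand).
Pard6b: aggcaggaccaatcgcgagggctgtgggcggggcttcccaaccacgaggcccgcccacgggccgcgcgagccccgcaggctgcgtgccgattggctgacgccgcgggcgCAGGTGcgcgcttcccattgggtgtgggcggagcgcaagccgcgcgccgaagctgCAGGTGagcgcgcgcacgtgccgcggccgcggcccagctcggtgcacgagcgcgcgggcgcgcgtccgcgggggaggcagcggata
Cldn4: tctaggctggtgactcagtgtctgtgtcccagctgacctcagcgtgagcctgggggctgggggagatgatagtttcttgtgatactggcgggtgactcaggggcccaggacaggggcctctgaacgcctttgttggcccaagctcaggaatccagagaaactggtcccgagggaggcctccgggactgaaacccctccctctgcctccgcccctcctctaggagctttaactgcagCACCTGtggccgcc
The match of Cldn4 begins 14 bases before the start and those of Pard6b begin 86 and 141 bases before it. A match of letters is a description of the sequence and was not tested for binding.

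The first comparison asked how the junction genes changed in WT tissue between early and late pregnancy. Of the 8 genes, 4 were called higher at p18 (Cldn1, Cldn7, Cldn8 and Ocln) and 0 lower, while 17.2% of all 17844 genes tested were called higher and 12.4% lower (edgeR quasi-likelihood test, Benjamini-Hochberg adjusted p under 0.05). The same 4 genes had no overlap between the stages, against 24.4% of all genes with every p18 library above every p6 library. The median log2 fold change was 0.87 over the 8 genes and -0.05 over all genes.

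Cldn8, a claudin known from tight epithelia such as the collecting duct, changed most. Its level was 23.8, 17.6 and 26.6 normalized CPM in the WT libraries at p6 and 157, 173 and 129 at p18. The lowest p18 library was thus far above the highest p6 library. The log2 fold change was 2.69 ± 0.23 (SE), a 6.45-fold rise (edgeR adjusted p = 1.58e-06).

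Cldn1, a broadly expressed sealing claudin, was at 7.06, 10.8 and 5.46 normalized CPM at p6 and at 15.1, 18.7 and 15.2 at p18 in WT tissue. It rose by a log2 fold change of 1.00 ± 0.20 (edgeR adjusted p = 0.00120). Cldn7, a claudin also found along the lateral membrane of epithelial cells, was at 20.2, 25.1 and 29.6 at p6 and at 43.3, 56.1 and 51.1 at p18. Both genes roughly doubled without overlap between the stages, and the log2 fold change of Cldn7 was 0.94 ± 0.22 (edgeR adjusted p = 0.00417). Ocln was at 18.0, 21.0 and 20.0 normalized CPM at p6 and at 37.8, 49.1 and 49.8 at p18, a log2 fold change of 1.15 ± 0.19 (edgeR adjusted p = 0.000285).

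The other 4 genes were not called in WT tissue. Cldn3, a sealing claudin of many glands, was at 18.5, 32.8 and 36.5 normalized CPM at p6 and at 34.3, 60.8 and 66.1 at p18. The stages overlapped because replicate 1 at p18 lay below replicate 3 at p6, and the log2 fold change was 0.81 ± 0.30 (edgeR adjusted p = 0.0517). Without replicate 1 at p18 it was 1.04 (adjusted p = 0.0174). Cldn3 passed in 4 of the 14 fits that left out a single library, with edgeR adjusted p between 0.0174 and 0.192. Cldn3 was also called with DESeq2 (adjusted p = 0.0373) and without a filter on low counts (0.0447). With 1 factor of unwanted variation in the model its log2 fold change was -0.17, and it was not called. Cldn4, the neighbour of Cldn3, was at 25.3, 31.1 and 25.1 at p6 and at 15.1, 33.5 and 32.1 at p18, where replicate 1 was again the lowest. That library also had the lowest luminal epithelial sum of its group, and the part of this in its claudin values was not tested. The log2 fold change of Cldn4 was -0.08 ± 0.26 (edgeR adjusted p = 0.853). Tjp1, which encodes ZO-1, was at 177, 141 and 134 at p6 and at 141, 167 and 156 at p18 (log2 fold change -0.02 ± 0.14, edgeR adjusted p = 0.919). Pard6b, which encodes a PAR6 adaptor of the apical polarity complex with PAR3 and atypical protein kinase C, was at 12.7, 12.8 and 13.8 at p6 and at 10.8, 14.2 and 16.6 at p18. Both sets of Pard6b values overlapped, with a log2 fold change of 0.02 and a 95% interval from -0.35 to 0.39.

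**Figure D1:**
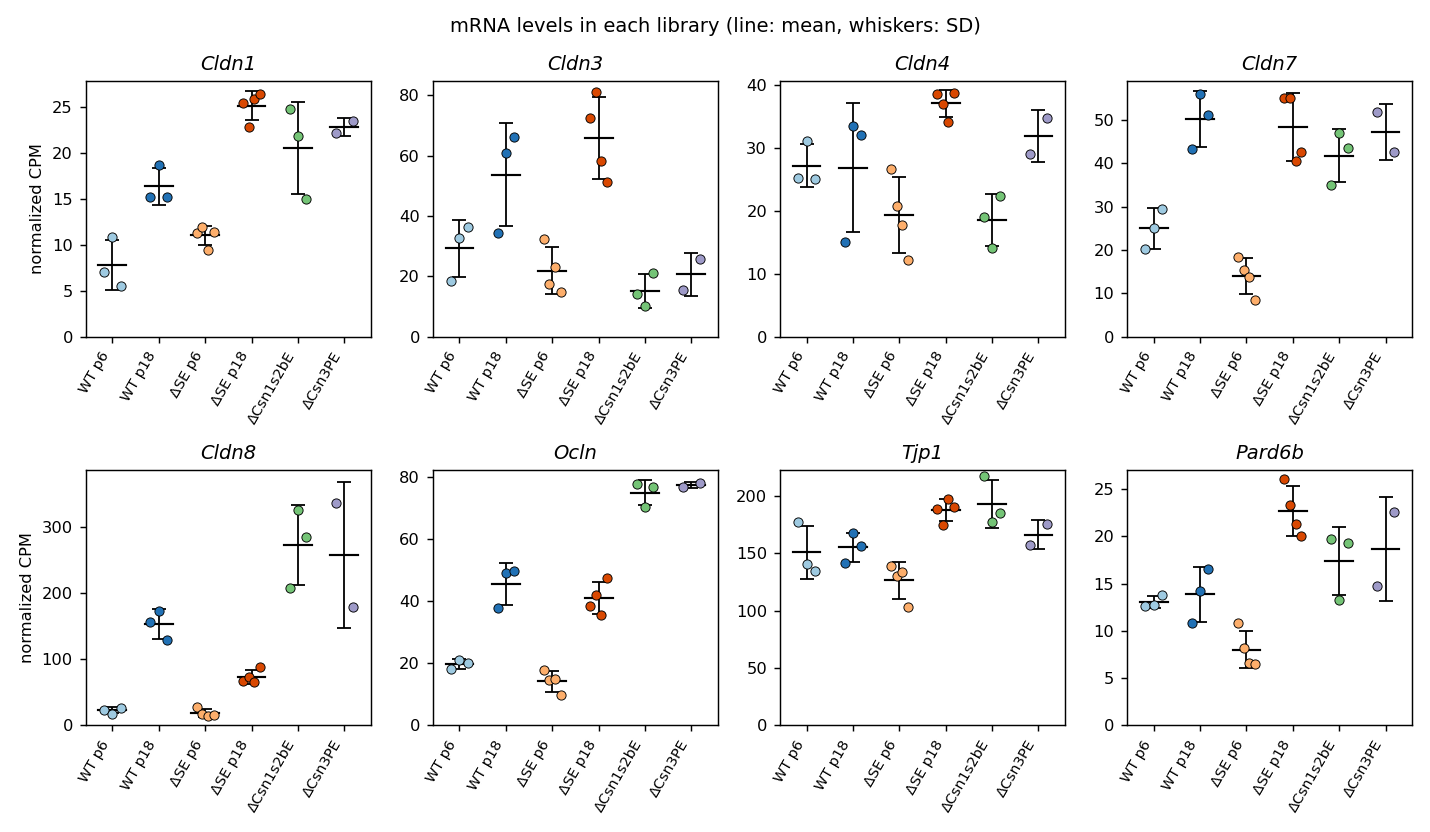
Normalized CPM of the 8 genes (one panel each, linear axes from 0) in every library of the 6 groups, with the group mean as a line and the SD as whiskers. Cldn8 stands at 129 to 173 in WT tissue at p18 and at 65.3 to 88.1 in ΔSE tissue at p18, whereas Pard6b at p18 is higher in ΔSE tissue (20.0 to 26.1) than in WT tissue (10.8 to 16.6).

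In ΔSE tissue all 8 genes were called higher at p18 than at p6, and all 8 had no overlap between the stages. Of all genes tested, 17.3% were called higher and 23.7% had every p18 library above every p6 library. The median log2 fold change was 1.40 over the 8 genes and -0.07 over all genes. The calls held in each of the 14 fits that left out a single library. Marker genes of other cells moved with the stage as well. In ΔSE tissue 9 of 10 luminal epithelial genes were called higher and 1 lower, and 8 of 8 skeletal muscle genes and 5 of 8 adipocyte genes were called lower. In WT tissue 5 luminal genes were higher and 1 was lower, 0 of the muscle genes passed and 2 of the adipocyte genes were lower. With the muscle level of each library as a covariate, an alternative chosen after seeing the data, 7 of the 8 genes kept their call in ΔSE tissue and Tjp1 did not (log2 fold change 0.40, edgeR adjusted p = 0.135). The part of the adipocyte genes was not tested.

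The largest change was again that of Cldn8, which was at 28.3, 16.6, 13.9 and 15.7 normalized CPM in the ΔSE libraries at p6 and at 66.6, 72.9, 65.3 and 88.1 at p18. This is a log2 fold change of 1.87 ± 0.20 or 3.65-fold (edgeR adjusted p = 5.17e-06). Cldn7 was at 18.3, 15.5, 13.7 and 8.55 at p6 and at 55.0, 55.1, 40.5 and 42.6 at p18, a log2 fold change of 1.67 ± 0.20. Replicate 4 at p6, the lowest value of Cldn7, was the lowest of its group also for Cldn3, Cldn4, Ocln, Tjp1 and Pard6b and had the lowest luminal epithelial sum.

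Cldn3 was at 32.3, 17.3, 23.1 and 14.9 normalized CPM at p6 and at 72.6, 81.2, 58.4 and 51.1 at p18 in ΔSE tissue, with a log2 fold change of 1.48 ± 0.26. Cldn1 was at 11.3, 11.9, 9.44 and 11.4 at p6 and at 25.4, 22.8, 25.8 and 26.4 at p18 (log2 fold change 1.08 ± 0.17). Cldn4 was at 26.7, 20.9, 17.7 and 12.2 at p6 and at 38.6, 37.1, 34.1 and 38.8 at p18 (log2 fold change 0.83 ± 0.23). These 3 claudins thus rose 1.78-fold to 2.78-fold.

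Ocln was at 17.7, 14.6, 14.7 and 9.67 normalized CPM at p6 and at 38.5, 42.1, 35.6 and 47.5 at p18 in ΔSE tissue (log2 fold change 1.42 ± 0.16). Tjp1 was at 139, 130, 133 and 103 at p6 and at 188, 174, 197 and 190 at p18. Tjp1 had the smallest change of the 8 genes, a log2 fold change of 0.46 ± 0.12. Pard6b was at 10.8, 8.18, 6.63 and 6.46 at p6 and at 26.1, 23.4, 21.4 and 20.0 at p18, a log2 fold change of 1.39 ± 0.17 or 2.61-fold (edgeR adjusted p = 1.49e-05).

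**Figure D2:**
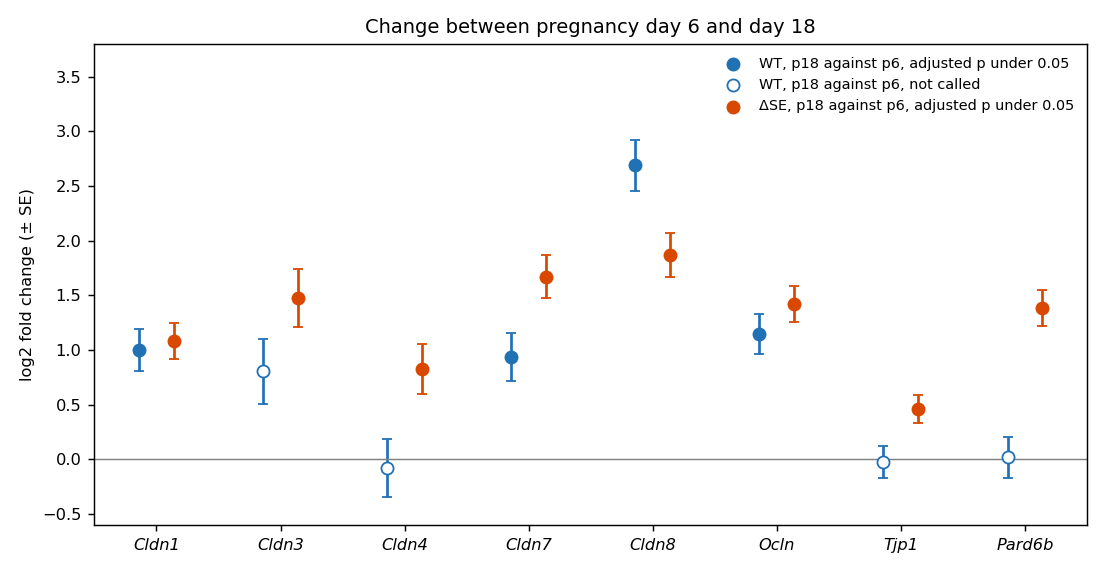
Log2 fold change between p6 and p18 (y axis, points, with SE as whiskers) of the 8 genes (x axis) in WT and ΔSE tissue; filled points passed an adjusted p of 0.05 and open points did not. Cldn8 lies highest in both genotypes, at 2.69 and 1.87, and Pard6b lies at 0.02 in WT and at 1.39 in ΔSE tissue.

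Because the luminal epithelial genes rose with stage too, the changes were also computed with libraries scaled by the summed counts of that list. Under this scaling the median gene fell by 0.53 in WT tissue and by 1.15 in ΔSE tissue on the log2 scale, and the calls over all genes changed from 3068 higher and 2211 lower to 582 and 4126 in WT, and from 3083 and 3265 to 334 and 13084 in ΔSE tissue. Relative to luminal genes, Cldn8 kept its rise, of 2.20 on the log2 scale in WT (edgeR adjusted p = 4.19e-06) and 0.84 in ΔSE tissue (adjusted p = 0.00244). Its reads per 1000 luminal list reads went from between 15.4 and 27.9 to between 77.1 and 132 in WT, and from between 18.8 and 30.1 to between 38.8 and 54.3 in ΔSE tissue. Ocln kept its call in WT (0.65, adjusted p = 0.0291) and lost it in ΔSE tissue (0.40, adjusted p = 0.0577). Cldn7 kept its call in ΔSE tissue (0.66, adjusted p = 0.00436) and lost it in WT (0.44, adjusted p = 0.143).

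The other genes did not keep a call in the same direction under this scaling. Cldn1 had log2 fold changes of 0.54 in WT and -0.0045 in ΔSE tissue, and neither passed. Cldn3 lost its call in ΔSE tissue (0.47, edgeR adjusted p = 0.0556). Cldn4 was called lower relative to luminal genes in WT (-0.61, edgeR adjusted p = 0.0491), and Tjp1 was called lower in ΔSE tissue (-0.59, adjusted p = 0.0135), where the median gene fell by more. Pard6b had -0.50 in WT (adjusted p = 0.121) and 0.35 in ΔSE tissue (adjusted p = 0.124), neither of which passed. With library totals alone as scaling, 2 of the 8 genes passed in WT and 5 in ΔSE tissue, where 4426 and 8597 of all genes did. When 1 factor of unwanted variation was added to the model, 0 passed in either, where 71 and 0 of all genes did.

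**Figure D3:**
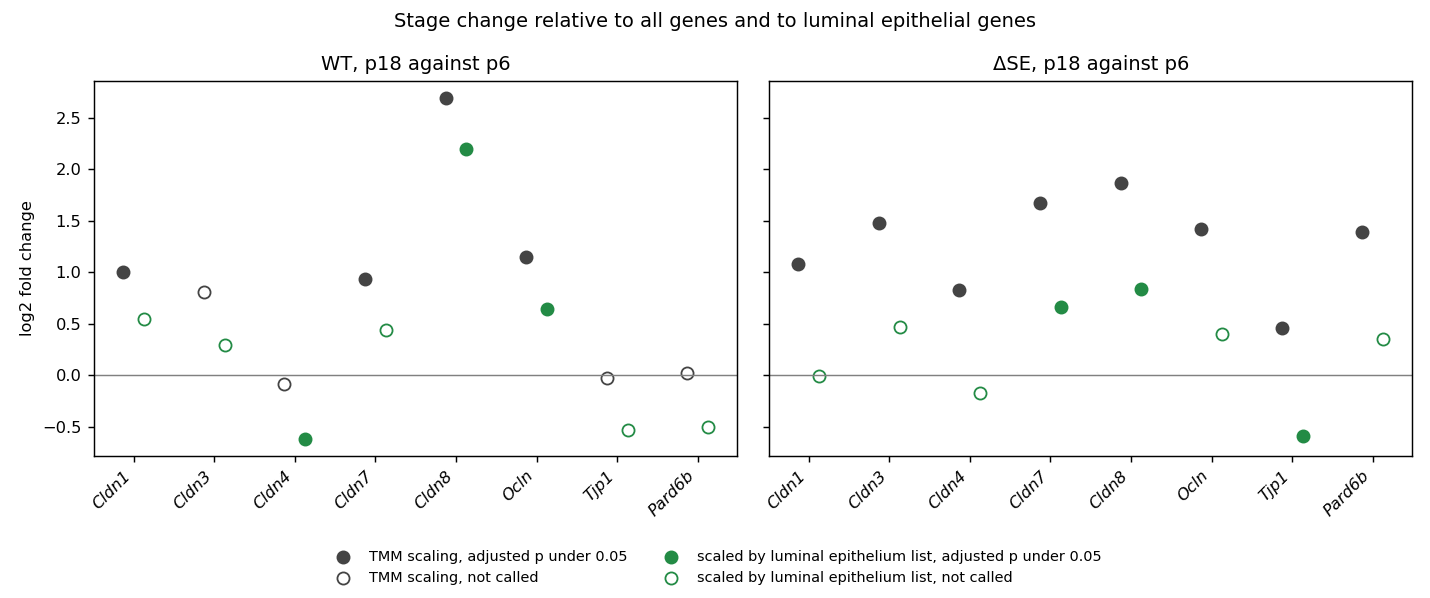
Log2 fold change between p6 and p18 (y axis) of the 8 genes (x axis) in WT (left) and ΔSE tissue (right), with TMM scaling over all genes in grey and scaling by the luminal epithelium list in green; filled points passed an adjusted p of 0.05. Cldn8 stays above 0 with filled points in all 4 cases, whereas Tjp1 in ΔSE tissue moves from 0.46 to -0.59.

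The order of the claudins changed with stage. Levels of different genes were compared as normalized CPM per kilobase of exon. At p6 in WT tissue Cldn3 had the highest mean per kilobase of all 27 claudins measured (23.2), followed by Cldn7 (16.9) and Cldn4 (15.0), whose ranges overlapped with their neighbours in this order. Cldn8 was lower than these 3, at 9.62, without overlap with Cldn4. At p18 in WT tissue Cldn8 came first with 65.0, above Cldn3 at 42.7, Cldn7 at 34.0 and Cldn4 at 14.8, and its range did not overlap with that of Cldn3.

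In ΔSE tissue Cldn3 was the claudin with the highest mean per kilobase at both stages, with 17.4 at p6 and 52.3 at p18. At p18 it did not overlap with Cldn7 at 32.7, which overlapped with Cldn8 at 31.1. Cldn1 was the lowest of the 5 claudins in every group, and among the 8 genes Pard6b and Cldn1 took the last place. The share of Cldn8 in the summed per-kilobase level of the 5 claudins was 10.5 to 18.5% in WT tissue at p6 and 33.3 to 49.0% at p18. In ΔSE tissue it was 12.7 to 19.3% at p6 and 18.6 to 27.4% at p18, below every WT library of p18. The share of Cldn4 had the opposite course, with 18.2 to 25.5% at p6 and 6.09 to 10.8% at p18 in WT tissue and 19.5 to 24.7% and 12.7 to 15.7% in ΔSE tissue. The level of Cldn4 itself did not fall in this way, with stage log2 fold changes of -0.08 in WT (not called) and 0.83 in ΔSE tissue (called higher). These shares are descriptions of the same levels and were not tested.

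**Figure D4:**
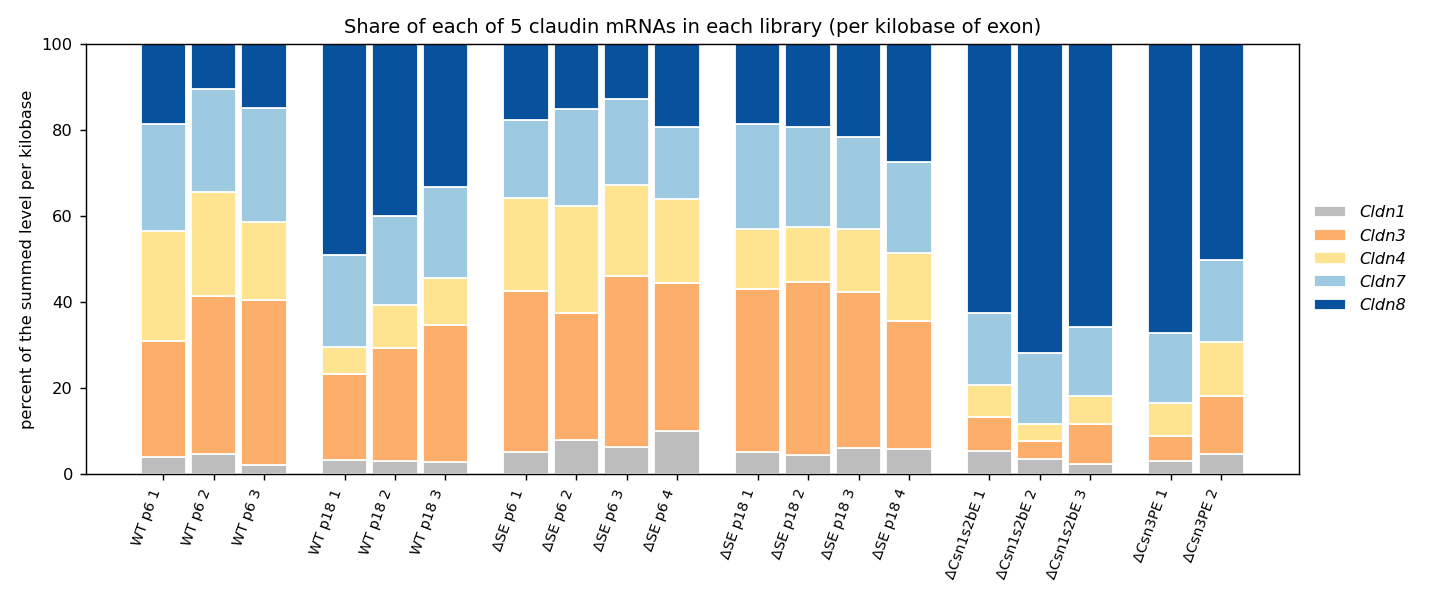
Percent of the summed normalized CPM per kilobase of 5 claudin genes taken by each claudin (y axis, stacked bars from 0 to 100) in each of the 19 libraries (x axis). Cldn8 takes 33.3 to 49.0% in WT tissue at p18, 18.6 to 27.4% in ΔSE tissue at p18 and 50.2 to 71.8% in the single-enhancer lines.

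The loss of the super-enhancer was next compared with WT tissue at each stage. At p18 Cldn8 was the gene of the 8 that passed the test, and it was lower in ΔSE tissue (1 of 8 genes, where 0.213% of all genes were called lower and 0.101% higher). Every ΔSE library (65.3 to 88.1 normalized CPM) was below every WT library (129 to 173), as for 9.05% of all genes, and the log2 fold change was -1.07 ± 0.20, or 0.476-fold (edgeR adjusted p = 0.0345). Relative to the luminal list it was -1.26 (adjusted p = 0.0129), with the median of all genes at -0.21. The call depended on single libraries. It passed in 5 of the 14 fits that left out a single library, with adjusted p between 0.0121 and 0.173, and 9 libraries, every ΔSE library of p18 among them, each ended the call when left out. The fold change itself stayed between -1.18 and -0.98 in these fits. The call also ended with library totals alone (-1.12, adjusted p = 0.0808) and with the muscle level as a covariate, chosen after seeing the data (-1.23, adjusted p = 0.0503).

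Other genes at p18 were higher in all ΔSE than in all WT libraries without passing the test. They were Cldn1, Cldn4, Pard6b and Tjp1 (4 of 8 genes, against 5.51% of all genes with every ΔSE library above every WT library). Cldn1 had 22.8 to 26.4 normalized CPM against 15.1 to 18.7 (log2 fold change 0.61 ± 0.18, edgeR adjusted p = 0.140). Pard6b had 20.0 to 26.1 against 10.8 to 16.6 (0.69 ± 0.18, adjusted p = 0.0970). Both were called with DESeq2, with adjusted p of 0.0397 and 0.0147, and in a fit of the 2 p18 groups alone, with 0.00801 and 0.0125. These settings called 496 and 824 of all genes. In the 14 fits that left out a single library, Cldn1 passed in 1 (edgeR adjusted p between 0.0394 and 0.368) and Pard6b in 0 (0.0634 to 0.330). Neither passed with library totals alone or with the muscle level as a covariate, chosen after seeing the data. Cldn4 had a log2 fold change of 0.45 ± 0.25 and Tjp1 of 0.26 ± 0.14, and Cldn3 (0.28 ± 0.28), Cldn7 (-0.07 ± 0.20) and Ocln (-0.17 ± 0.17) overlapped between the genotypes.

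At p6 edgeR called 0 of the 8 genes between ΔSE and WT tissue, where 1.03% of all genes were called. Unadjusted p was under 0.05 for 4 of them (Cldn1, Cldn7, Ocln and Pard6b), and for 3035 of all 17844 genes. DESeq2 called 2 of them (Cldn7 and Pard6b), and 908 of all genes. Cldn7 had 8.55 to 18.3 normalized CPM in ΔSE and 20.2 to 29.6 in WT tissue (log2 fold change -0.80 ± 0.21, edgeR adjusted p = 0.0667). Pard6b had 6.46 to 10.8 and 12.7 to 13.8 (-0.67 ± 0.18, adjusted p = 0.0714), and Ocln had 9.67 to 17.7 and 18.0 to 21.0 (-0.44 ± 0.17, adjusted p = 0.206). For these 3 genes every ΔSE library was below every WT library, as for 6.71% of all genes. The luminal epithelial sum was also lower in ΔSE than in WT tissue at p6 at the median (748 against 955 normalized CPM), and under luminal scaling, where the median gene was at 0.44, none of the 3 was called and Cldn1 was called higher in ΔSE tissue (0.99, adjusted p = 0.0199). Without replicate 2 of WT at p6, Cldn1 was called higher (adjusted p = 0.00349) and Cldn7 (0.0358) and Pard6b (0.0375) lower. That fit called 1767 of all 17732 genes tested, against 183 of 17844 with every library. Without replicate 1 of ΔSE at p6, Cldn7 (0.0451) and Pard6b (0.0342) were called, and 123 of all genes. In a fit of the 2 p6 groups alone 0 of all genes passed.

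Whether the stage change differed between the genotypes was tested as an interaction. Pard6b passed, with a stage log2 fold change larger by 1.37 ± 0.25 in ΔSE than in WT tissue (edgeR adjusted p = 0.0462, 95% interval 0.87 to 1.86), while 0.151% of all genes passed. Pard6b was lower at p6 and higher at p18 in ΔSE than in WT tissue, but edgeR called neither difference (adjusted p = 0.0714 and 0.0970). Its reads per 1000 luminal list reads overlapped at p6 (9.01 to 12.4 in ΔSE and 11.2 to 14.5 in WT tissue). At p18 they did not (12.3 to 15.2 and 9.08 to 9.92). The interaction passed in 3 of the 14 fits without a single library, with a fold change between 1.22 and 1.59 and adjusted p between 0.00793 and 0.136, and 11 libraries each ended the call when left out. Under luminal scaling, where the median gene was at -0.66, it was 0.86 (adjusted p = 0.0771), and with the muscle level as a covariate 1.40 (adjusted p = 0.0903). The call of Pard6b also ended with 1 factor of unwanted variation (1.16, adjusted p = 0.290) and with library totals alone (1.13, adjusted p = 0.218).

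The interaction of Cldn8 was -0.82 ± 0.30 (edgeR adjusted p = 0.188), so that its smaller rise in ΔSE tissue did not pass the test. Under luminal scaling it was -1.35 (adjusted p = 0.0238). Cldn4 (0.91 ± 0.35), Cldn7 (0.73 ± 0.29) and Tjp1 (0.48 ± 0.19) had unadjusted p between 0.0187 and 0.0221 and adjusted p between 0.215 and 0.230. The intervals of Cldn1 (-0.42 to 0.58), Cldn3 (-0.10 to 1.44) and Ocln (-0.20 to 0.75) included 0.

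The single-enhancer lines were compared with WT tissue at p18, a comparison in which the deletion, the set of libraries and the uncertain stage cannot be told apart. In ΔCsn1s2bE tissue Cldn8 and Ocln were higher and Cldn3 lower (3 of 8 genes, where 32.3% of all genes were called). In ΔCsn3PE tissue Ocln was higher and Cldn3 lower (2 of 8 genes, where 25.2% of all genes were called). The share of the 8 genes called was thus near that of all genes. Libraries of ΔCsn1s2bE tissue all lay above those of WT for 25.5% of genes and all below for 21%, and those of ΔCsn3PE tissue for 27.9% and 23.6%.

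Cldn3 was at 14.03, 10.1 and 21.2 normalized CPM in ΔCsn1s2bE and at 15.6 and 25.6 in ΔCsn3PE tissue, all below the 34.3 to 66.1 of WT tissue. Its log2 fold changes were -1.84 ± 0.31 (edgeR adjusted p = 0.00203) and -1.39 ± 0.35 (adjusted p = 0.0169). In ΔCsn3PE tissue the call was lost without replicate 1 of that line (adjusted p = 0.118) or without WT replicate 2 (0.0501) or 3 (0.0519), and with library totals alone (-0.94, adjusted p = 0.0919). Ocln was at 77.6, 70.3 and 76.8 in ΔCsn1s2bE and at 76.7 and 78.0 in ΔCsn3PE tissue, all above the 37.8 to 49.8 of WT tissue, with log2 fold changes of 0.71 ± 0.13 and 0.75 ± 0.14 (edgeR adjusted p = 0.00272 and 0.00527).

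Cldn8 was at 208, 326 and 286 normalized CPM in ΔCsn1s2bE and at 337 and 180 in ΔCsn3PE tissue, above every WT library. The log2 fold change was 0.83 ± 0.24 in ΔCsn1s2bE (edgeR adjusted p = 0.0238) and 0.74 ± 0.26 in ΔCsn3PE tissue (adjusted p = 0.0613). The first call was lost in 4 of 8 fits, without replicate 2 or 3 of ΔCsn1s2bE or replicate 1 or 3 of WT, and with 1 factor of unwanted variation (0.71, adjusted p = 0.0670). The second passed without replicate 2 of ΔCsn3PE (1.13, adjusted p = 0.0154), with DESeq2 (0.71, adjusted p = 0.0331), with library totals alone (1.11, adjusted p = 0.000988) and without a filter on low counts (0.75, adjusted p = 0.0342). Cldn8 was the first claudin per kilobase in both lines, with 116 and 110, and Cldn7 the second, with 28.3 and 32.0.

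The remaining genes were not called in either line. Cldn1 was at 24.7, 21.7 and 14.9 normalized CPM in ΔCsn1s2bE and 22.1 and 23.4 in ΔCsn3PE tissue, Cldn7 at 35.0 to 47.0 and at 51.9 and 42.7, and Pard6b at 13.3 to 19.8 and at 14.8 and 22.6. Tjp1 was at 178 to 217 in ΔCsn1s2bE tissue, above every WT library, with a log2 fold change of 0.31 ± 0.13 (edgeR adjusted p = 0.0940), and at 157 and 175 in ΔCsn3PE tissue.

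The comparison of the 2 single-enhancer lines with each other lies within a set of libraries. There edgeR and DESeq2 called 0 of the 8 genes, and 0.181% of all genes were called by edgeR. Of all 17125 genes, 860 had an unadjusted p under 0.05, and of the 8 genes 1 did. This was Cldn4, at 19.1, 14.1 and 22.4 normalized CPM in ΔCsn1s2bE and at 29.0 and 34.8 in ΔCsn3PE tissue, with a log2 fold change of -0.78 ± 0.29 (edgeR adjusted p = 0.824). With the muscle level of each library as a covariate, an alternative chosen after seeing the data, its adjusted p was 0.0193, and with 1 factor of unwanted variation it was 0.0150. The 95% intervals of the log2 difference were -0.44 to 0.61 for Cldn8 and -0.32 to 0.23 for Ocln.

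Other genes of the junction were read from the same fits. Of 24 other tight junction genes, 7 were called higher and 4 lower in WT tissue at p18 against p6 (17.2% and 12.4% of all genes), with a median log2 fold change of 0.08. Ildr1, a protein of contacts between 3 cells, rose by 1.05 ± 0.17 and F11r, the junctional adhesion molecule JAM-A, by 0.66 ± 0.12. The scaffold Mpdz fell by 0.79 ± 0.15 and the cingulin-like gene Cgnl1 fell by 0.71 ± 0.14. In ΔSE tissue 14 were higher and 4 lower (17.3% and 18.3% of all genes), with a median of 0.46. They included Marveld3 (1.55 ± 0.14) and Marveld2 (1.07 ± 0.13), membrane proteins related to occludin, the ZO-3 gene Tjp3 (1.89 ± 0.21) and cingulin, Cgn (2.02 ± 0.23).

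Between the genotypes, 1 of the 24 genes passed at p18 and in the interaction. This was Cgnl1, higher in ΔSE tissue at p18 by a log2 fold change of 0.82 ± 0.13 (edgeR adjusted p = 0.0141), with an interaction of 1.17 ± 0.18 (adjusted p = 0.0446). Of all genes, 0 passed the interaction with library totals alone, with 1 factor of unwanted variation or without any single ΔSE library of p18. The interaction call of Cgnl1 thus ended in these fits. At p6, 5 of the 24 were lower and 0 higher in ΔSE tissue, where 0.527% of all genes were lower. Among the 5 were Cgn (-1.12 ± 0.24), Marveld2 (-0.62 ± 0.13), Marveld3 (-0.69 ± 0.15) and the PALS1-associated scaffold Inadl (-0.67 ± 0.15). Of 10 luminal epithelial genes, 2 were also lower and 0 higher, with a median log2 fold change of -0.40, against -0.25 over the 24 genes. The part of luminal content in the 5 calls was not tested. At p6 a fit of the compared groups alone called 0 of all genes. Fits without a single library called between 8 (without replicate 4 of ΔSE at p6) and 1767 (without replicate 2 of WT at p6). Against WT, ΔCsn1s2bE tissue had 3 higher and 3 lower and ΔCsn3PE tissue 2 higher and 2 lower, smaller shares than the 32.3% and 25.2% of all genes called in these comparisons. Mpp5, the polarity scaffold PALS1, was higher in both lines (0.70 ± 0.12 and 0.72 ± 0.13) and Tjp3 was lower in both (-1.17 ± 0.26 and -0.88 ± 0.29).

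Of 22 other claudins, 13 had enough reads to be tested. In WT tissue 2 of the 13 were higher and 2 lower at p18, beside 17.2% and 12.4% of all genes. Cldn12 rose by a log2 fold change of 0.91 ± 0.16 and Cldn15, a pore-forming claudin, by 0.69 ± 0.23, while Cldn19 and Cldn6 fell at low levels. Cldn6 had 4 to 77 reads in the WT libraries at p6 and 2 to 4 at p18. In ΔSE tissue Cldn12 and Cldn15 were again higher (0.80 ± 0.14 and 0.68 ± 0.20) and 3 were lower, beside 17.3% and 18.3% of all genes. None of the 13 passed between ΔSE and WT tissue at either stage. Cldn5, the claudin of endothelium, was lower in both single-enhancer lines than in WT tissue (-0.91 ± 0.22 and -0.82 ± 0.25) and Cldn12 was higher in both (0.55 ± 0.11 and 0.50 ± 0.12). Cldn1, Cldn3, Cldn4, Cldn7 and Cldn8 together took 82.9 to 85.0% of the summed per-kilobase level of all claudins in WT tissue at p18 and 66.1 to 81.6% at p6.

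Polarity genes were called higher in 6 and lower in 2 of 14 cases in WT tissue at p18 against p6, and in 5 and 0 in ΔSE tissue, beside 17.2% higher and 12.4% lower of all genes in WT and 17.3% and 18.3% in ΔSE tissue. Llgl2, a basolateral polarity protein, rose by 1.27 ± 0.17 in WT and 1.37 ± 0.15 in ΔSE tissue, and Prkci, the atypical protein kinase C that binds PAR6, by 0.56 ± 0.13 and 0.68 ± 0.11. Of 14 genes of adherens junctions and desmosomes, 2 were higher and 2 lower in WT, among them plakoglobin, Jup (0.82 ± 0.17), and 8 were higher and 1 lower in ΔSE tissue, among them E-cadherin, Cdh1 (0.80 ± 0.20), and desmoglein 2, Dsg2 (1.19 ± 0.14). Between ΔSE and WT tissue none of either list passed at either stage. Of 17 regulators of epithelial junctions, 7 were higher and 2 lower in WT and 10 higher and 4 lower in ΔSE tissue. The membrane protease gene Prss8 rose by 1.33 ± 0.16 and 1.69 ± 0.14, its inhibitor gene Spint2 by 0.96 ± 0.14 and 1.28 ± 0.12, and Elf5, a transcription factor of alveolar cells, by 2.62 ± 0.39 and 3.68 ± 0.35. Between ΔSE and WT tissue at p6, 2 of the 17 regulators were lower and 0 higher, where 0.527% of all genes were lower. At p18 0 of them passed. The part of luminal content in the 2 calls was not tested.

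The 8 genes did not vary alike across the 14 WT and ΔSE libraries. Pearson's r of log2 normalized CPM was 0.96 between Ocln and Cldn7 and 0.92 between Cldn7 and Cldn3, and it was 0.37 between Cldn8 and Cldn4 and 0.46 between Cldn8 and Tjp1. These libraries share 2 stages and differ in tissue content, so that the values describe the set and carry no test. Among 11464 other genes with a mean of at least 50 reads, those most like Cldn8 were Rab1 (r = 0.99), a GTPase of transport from the endoplasmic reticulum, Magt1 (0.98), a part of the protein glycosylation machinery, and Edem2 (0.98), which acts in the disposal of misfolded glycoproteins. Among those most like Cldn3 were Krt8, a luminal keratin (0.97), and Hnrnpab (0.96), and those most like Cldn7 were Ssx2ip, Papola and Spint1 (0.97 to 0.98).

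Ocln was most like Spint1, Elovl7 and Lin9 (0.97 each), and Cldn4 was most like Cdh1 (0.93), Plxnb2 and Atp10b. Among the genes closest to Pard6b were Slain1 (0.97) and Scaf11 (0.95). Tjp1 was most like Chd1 (0.94), the afadin gene Mllt4 (0.92) and Erbb3 (0.91). For Cldn1 the closest genes were Pnrc1 (0.95), Strn (0.94) and Tug1 (0.93).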

How the data were processed

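Total RNA of mammary tissue was depleted of ribosomal RNA, made into stranded libraries and sequenced in paired ends. The authors trimmed reads with Trimmomatic, aligned them to mm10 with STAR and counted reads per gene with HTSeq; the deposited values are these raw counts, 1 file per sample. The annotation and strand setting of the counting were not given in the sources used here. The sources describe replicates as independent biological samples. Entries that name no gene, present in the single-enhancer files alone (reads outside genes 13.2 to 20.9%, ambiguous 0.672 to 0.821%, not uniquely aligned 8.57 to 9.62%), were left out.

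Counts were tested with the quasi-likelihood functions of edgeR (version 4.0.16, in R 4.3.3) after TMM scaling. Genes entered a fit with 10 or more reads over its libraries. The fit for WT and ΔSE tissue used 14 libraries (17844 genes) and that for the single-enhancer lines used 8, with WT at p18 (17125 genes). Calls have a Benjamini-Hochberg adjusted p under 0.05 over all genes tested. SE is the log2 fold change over the root of the F statistic. Levels are CPM with TMM factors over all 19 libraries, whereas fold changes use the factors of their fit. Lengths are merged exons of GENCODE M21. Likeness used log2 CPM with a prior count of 2. Named genes are the 8 genes, up to 4 called genes of each list and comparison with the smallest p, list markers and the 3 most alike genes, of which some are not reported here. The genes and lists were chosen with earlier results of these data known. DESeq2 (version 1.42.0), other scalings and filters, 1 factor of unwanted variation, the replicate number as a block and leaving out each library were alternatives, and a muscle covariate was chosen after seeing the data. Both tools were tested on simulated data.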

Additional observations from a re-analysis of the deposited data

Results flagged for a closer look

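Pard6b was marked for a closer look because its change between p6 and p18 differed between the genotypes by a test of the difference itself. The stage log2 fold change was larger by 1.37 ± 0.25 in ΔSE than in WT tissue (edgeR adjusted p = 0.0462), with a log2 fold change of 0.02 in WT and 1.39 in ΔSE tissue. Across the other settings and the fits without a single library its adjusted p lay between 0.000182 and 0.290. Dixon's criterion was applied to the 4 ΔSE libraries of p6 and to the 4 of p18 for each of the 8 genes (16 tests). No library stood apart from its group there. The WT and single-enhancer groups hold fewer than 4 libraries and were not tested in this way.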

How the results depend on the processing

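Of 1384 values under other settings, 1241 kept their direction and side of the threshold, 59 lost and 38 gained a call, 42 moved and 4 reversed, and the cause was not tested. The reversed values are of the ΔSE stage change, which was -0.0045 for Cldn1, -0.18 for Cldn4 and -0.59 for Tjp1 under luminal scaling and -0.12 for Tjp1 with library totals alone. Counts below are of all genes called, then of the 8 genes.

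With 1 factor of unwanted variation, the stage comparison gave 71 and 0 in WT and 0 and 0 in ΔSE tissue. ΔSE against WT gave 88 genes at p18 and 8 at p6, and the interaction 0 and 0. ΔCsn3PE against WT gave 3274 and 4, and the comparison of the single-enhancer lines 38 and 1. DESeq2 called 496 and 3 at p18, 908 and 2 at p6, 584 genes in the interaction and 96 between the lines. Library totals alone gave 4426 and 2 for WT stage, 8597 and 5 for ΔSE stage, 13 and 0 at p18 and 37 genes at p6. They gave 0 and 0 for the interaction and 6318 and 5 in ΔCsn1s2bE against WT. Their calls higher and lower were 763 and 3663 for WT stage, 628 and 7969 for ΔSE stage, 2 and 11 at p18, 5444 and 874 for ΔCsn1s2bE and 5103 and 627 for ΔCsn3PE, against 3068 and 2211, 3083 and 3265, 18 and 38, 2950 and 2576, and 2355 and 1968 with TMM.

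Without a low-count filter 102 genes passed at p18, 277 at p6, 94 in the interaction and 58 between the lines. Fits of the compared groups alone gave 3481 for WT stage, 824 and 3 at p18, 0 genes at p6 and 9 between the lines. Luminal scaling gave 13418 and 3 for ΔSE stage, 85 genes at p18 (7 higher, 78 lower), 1591 and 1 at p6 (1529 higher, 62 lower, against 89 and 94), 1786 in the interaction (35 higher, 1751 lower, against 16 and 11) and 1986 for ΔCsn3PE (407 higher, 1579 lower). The muscle covariate, chosen after seeing the data, gave 3409 for ΔSE stage, 28 and 0 at p18, 415 genes at p6 and 8 and 0 for the interaction. It gave 3469 and 4 in ΔCsn3PE against WT and 36 and 1 between the lines.

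Replicate numbers did not pair the samples: correlations of deviations lay between -0.128 and 0.156 among WT and ΔSE groups and between -0.431 and 0.265 in the fit of the single-enhancer lines, and no pair of groups with 3 or more numbers had all of them above 0.1. The replicate block gave 26 genes at p6, 1963 for ΔCsn3PE, and 0 of the 8 genes at p18 (Cldn8 -1.09, adjusted p = 0.0571) and in the interaction (Pard6b 1.37, adjusted p = 0.0565), and it called Cldn3 in the WT stage comparison (0.81, adjusted p = 0.0437). Without single libraries, genes called ranged from 6 to 251 at p18, 8 to 1767 at p6, 0 to 1036 in the interaction, 1327 to 4139 for ΔCsn3PE and 19 to 32 between the lines, and of the 8 genes 0 to 2 passed at p18, 0 to 3 at p6, 0 to 1 in the interaction and 1 to 3 for ΔCsn3PE. With 1 ΔCsn3PE library left, that library was assumed to vary like the other groups.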
